A study of Rattus norvegicus with 12 samples.

Results

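The genes described here encode the receptors, the exporter and the enzymes of sphingosine 1-phosphate (S1P), and they were chosen as the probe sets whose annotated symbol is S1pr1, S1pr2, S1pr3, S1pr5, Spns2, Sphk1, Sphk2, Sgpl1 or Sgpp1. Of these 9 genes 8 were measured, by 12 of the 31042 probe sets on the array. Sgpp1, the gene of an S1P phosphatase, is not analysed here. Expression was measured in whole lung of wild type male Sprague Dawley rats weighing 250 to 350 g, with 12 Affymetrix arrays, 3 for each of 4 groups. BD/SEW animals had brain death, for which a balloon catheter was inflated outside the dura, and SEW-2871 (0.1 mg/kg, intravenous) 15 min later. BD animals had brain death alone, SEW animals had the same dose alone, and sham animals were the controls. The labels do not say whether SEW animals had the sham operation, when the lungs were taken, or whether each array is a separate animal, so p-values measure the spread between arrays, which may be technical.

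S1P is a lipid made from sphingosine by the sphingosine kinases Sphk1 and Sphk2, exported from endothelial cells by the transporter Spns2, and removed by dephosphorylation (Sgpp1) or by irreversible cleavage (Sgpl1). It acts through G protein-coupled receptors. In lung vessels S1P1, encoded by S1pr1, is known for strengthening endothelial junctions, S1P2, encoded by S1pr2, for opposing this, and S1P1 on lymphocytes for their exit from lymphoid organs. SEW-2871 is an agonist of S1P1, so the comparisons ask whether brain death, the agonist or both changed the transcripts of this lipid's own system.

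The values are log2 probe set values. A gene with several probe sets is represented by its brightest, and calls are adjusted p-values under 0.05, by limma over all 12 arrays with Benjamini-Hochberg adjustment over 14217 genes. The array medians lay between 7.34 and 7.41 and the lower quartiles between 5.56 and 5.66. Signal over background was not measured, and precision is limited by the number of arrays. The 8 surfactant and other alveolar type 2 markers, which define lung, had means of 12.92 to 13.46 in the 12 arrays. Some arrays stood apart. The mean of 17 cardiac muscle markers was 6.35 to 8.48 in BD/SEW, 6.52, 11.73 and 7.57 in BD, 6.07 to 7.85 in SEW and 9.85 to 10.79 in sham arrays. Adipocyte markers followed, with 6.66 to 7.34 in BD/SEW, 6.55 to 9.22 in BD, 6.69 to 6.84 in SEW and 8.59 to 9.66 in sham arrays (11 genes). SEW replicate 2 had a mean of 13.12 over 11 heat shock and chaperone genes, against 11.19 to 11.57 elsewhere. The lowest array weights were 0.25 for sham replicate 3 and 0.32 for SEW replicate 2.

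Over the 8 measured genes, S1pr2 rose in BD/SEW against SEW and in BD/SEW against sham, and Spns2 rose in SEW against sham. The share of all genes that rose was 4.75% for BD/SEW against SEW, 1.7% for BD/SEW against sham and 3.4% for SEW against sham. No other gene of the 8 was called in these comparisons.

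In the other comparisons 0 of the 8 genes were called. These are BD against sham, BD/SEW against BD and the interaction (the brain-death difference in treated rats less that in untreated rats). An unadjusted p under 0.05 by limma was found for 4 of 8 genes in BD against sham (11% of all genes), for 1 of 8 in BD/SEW against BD (5.44%) and for 2 of 8 in the interaction (12.5%). The share of all genes called in either direction was 0.591% for BD against sham, 0.0141% for BD/SEW against BD and 0.95% for the interaction.

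The median log2 fold change of the 8 genes was -0.03 for BD against sham (0.003 over all genes) and -0.01 for SEW against sham (0.02). It was 0.02 for BD/SEW against BD (0.007), 0.015 for BD/SEW against SEW (-0.007) and 0.06 for BD/SEW against sham (0.01). In the interaction it was 0.13 (-0.02). The genes went in both directions, and their median absolute log2 fold change was 0.26 for BD against sham (0.11 over all genes), 0.46 for SEW against sham (0.17) and 0.15 for BD/SEW against BD (0.093). It was 0.31 for BD/SEW against SEW (0.15), 0.32 for BD/SEW against sham (0.13) and 0.52 for the interaction (0.17).

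**Figure D1:**
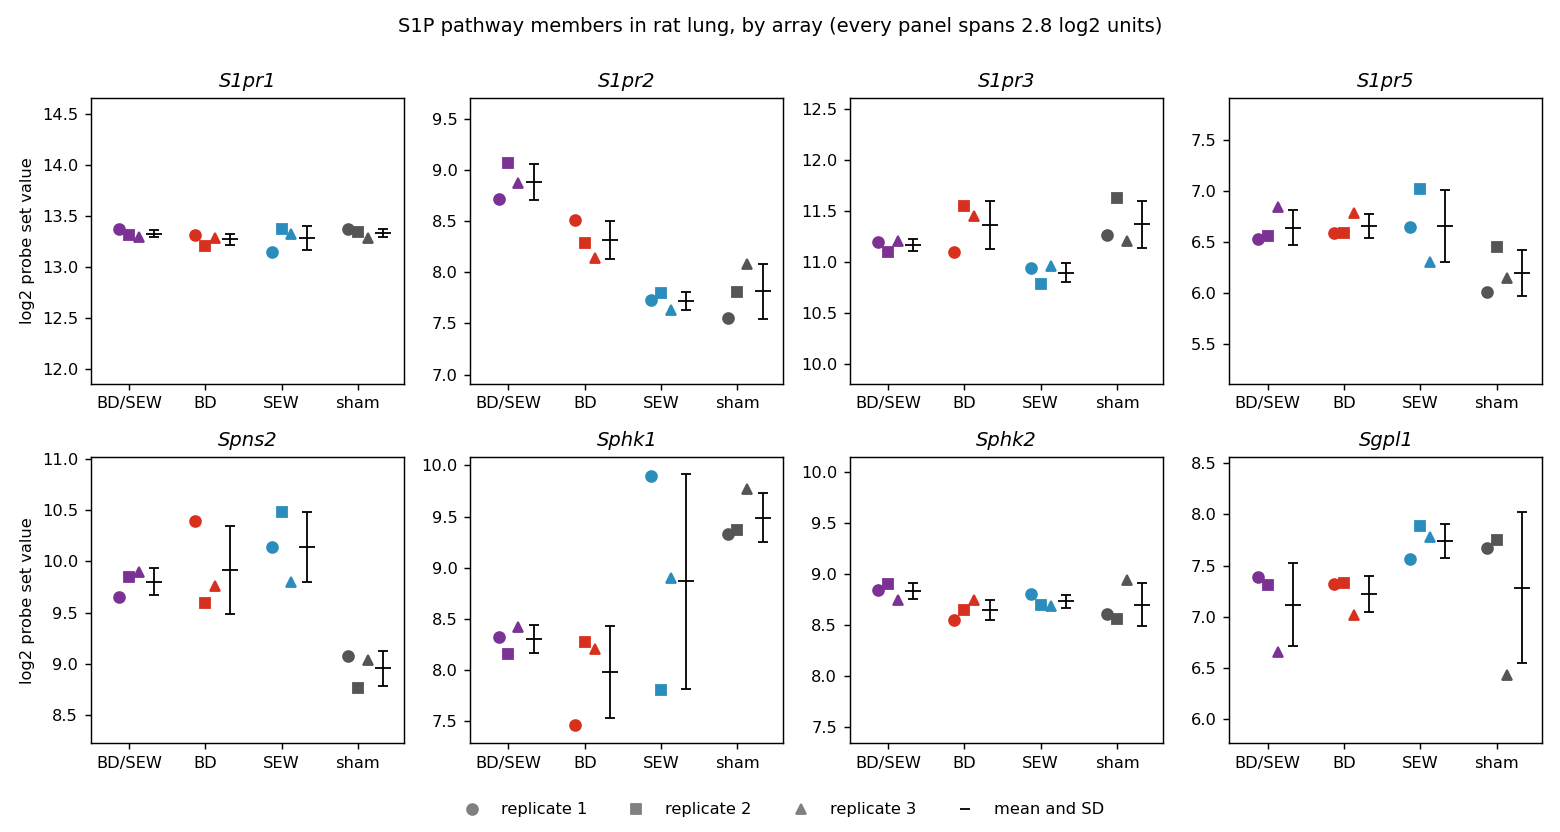
Log2 probe set values of the 8 measured genes in each array, with groups on the horizontal axis, replicates as symbols, and the mean and SD beside them. S1pr1 lies between 13.15 and 13.37 in all arrays, S1pr2 is highest in the BD/SEW arrays, Spns2 is lowest in the sham arrays, and the 3 SEW arrays of Sphk1 spread from 7.8 to 9.9.

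S1pr1, the gene of the receptor that SEW-2871 acts on, was called in no comparison and had the narrowest range of values over the 12 arrays among the 8 genes. It had values of 13.37, 13.32 and 13.3 in BD/SEW, 13.32, 13.21 and 13.29 in BD, 13.15, 13.37 and 13.33 in SEW, and 13.37, 13.35 and 13.29 in sham arrays. All 4 groups overlapped, and no neighbours in the order of the means, BD lowest and sham highest, were apart. The log2 fold change was -0.06 (95% interval -0.22 to 0.09) in BD against sham and -0.05 (-0.21 to 0.10) in SEW against sham. It was 0.06 (-0.10 to 0.21) in BD/SEW against BD. None passed the test, and these intervals leave room for changes of up to 0.22 log2 units in either direction. The S1pr1 values lay at percentile 99.4 to 99.6 of their arrays, and how far this probe set can still follow a difference so near the top of the range was not tested. A dimmer S1pr1 probe set lay below the lower quartile of the arrays, at 5.36 to 5.51 in BD/SEW, 5.27 to 5.54 in BD, 5.15 to 5.34 in SEW and 5.2 to 5.24 in sham arrays, and passed in no comparison.

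S1pr2, the gene of the receptor S1P2, was the receptor gene that rose. Its values were 8.72, 9.07 and 8.87 in BD/SEW, 8.51, 8.29 and 8.14 in BD, 7.73, 7.8 and 7.63 in SEW, and 7.55, 7.81 and 8.08 in sham arrays. The BD/SEW arrays lay above all others and the BD arrays above the SEW and sham arrays, while SEW and sham arrays overlapped. S1pr2 averaged 8.89 ± 0.18 in BD/SEW and 7.72 ± 0.09 in SEW (SD, n = 3 each), a log2 fold change of 1.17 ± 0.15 (SE; 2.24-fold, 95% interval 1.78 to 2.83; adjusted p = 0.000864). Against sham, at 7.81 ± 0.27, it was 1.07 ± 0.15 (2.1-fold, 1.67 to 2.65; adjusted p = 0.00481). These comparisons share the BD/SEW arrays. S1pr2 was called in 12 of 12 fits with 1 array left out in BD/SEW against SEW (log2 fold change 1.08 to 1.25) and in 12 of 12 in BD/SEW against sham (0.94 to 1.21), but against sham it was not called with the cardiac markers as a covariate (0.98 ± 0.21, adjusted p = 0.138).

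In the other comparisons the S1pr2 arrays did not overlap in 2 cases without passing the test. In BD against sham S1pr2 differed by 0.5 ± 0.15 (log2, adjusted p = 0.207), and in BD/SEW against BD by 0.57 ± 0.15 (adjusted p = 0.698). In SEW against sham the difference was -0.09 ± 0.15 (adjusted p = 0.741). The brain-death difference was 1.17 with the agonist and 0.5 without it, and the interaction of 0.67 ± 0.22 did not pass (adjusted p = 0.226), so a difference between these is not shown. Of all genes, 7.95% were higher without overlap in BD against sham and 7.9% in BD/SEW against BD.

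Neutrophil and platelet markers were also highest in the BD/SEW arrays. The mean of 7 neutrophil markers was 11.49 to 11.98 in BD/SEW, 10.73 to 11.22 in BD, 9.33 to 10.98 in SEW and 10.02 to 11.15 in sham arrays. The mean of 7 platelet and erythroid markers was 8.91 to 9.62 in BD/SEW, 8.59 to 8.78 in BD, 7.54 to 8.53 in SEW and 7.7 to 8.32 in sham arrays. Endothelial markers (12 genes) did not follow this order, at 11.35 to 11.45 in BD/SEW, 11.3 to 11.58 in BD, 11.59 to 11.66 in SEW and 11.12 to 11.38 in sham arrays. The part of these cells in the S1pr2 result was not tested, and in RNA of whole lung more cells of a type and more RNA per cell cannot be told apart.

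A second S1pr2 probe set, dimmer and near the lower quartile of the arrays, called no difference. Its values were 6.18, 6.1 and 5.42 in BD/SEW, 5.86, 5.93 and 5.18 in BD, 5.6, 5.97 and 5.28 in SEW, and 5.19, 5.54 and 4.56 in sham arrays. Replicate 3 was the lowest array in 4 of 4 groups, and all groups overlapped their neighbours. Tested over all 31042 probe sets by limma, it differed by 0.28 ± 0.29 in BD/SEW against SEW (adjusted p = 0.662) and by 0.80 ± 0.29 in BD/SEW against sham (adjusted p = 0.214). With both S1pr2 probe sets averaged, the log2 fold change in BD/SEW against SEW was 0.725 (adjusted p = 0.0229), against 1.17 for the brighter one alone.

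The promoter of S1pr2, the called gene with a sequence here, is shown beside that of S1pr1, the agonist's receptor gene with little movement. Both are the 250 bases upstream of the annotated start, 5′ to 3′ on the gene's strand, from RefSeq on build GRCr8. S1pr2 lies on the minus strand at chr8:27790345-27790594 and S1pr1 on the minus strand at chr2:206314071-206314320. Capitals mark the core CACCC, read on either strand, to which Kruppel-like factors bind.
S1pr2: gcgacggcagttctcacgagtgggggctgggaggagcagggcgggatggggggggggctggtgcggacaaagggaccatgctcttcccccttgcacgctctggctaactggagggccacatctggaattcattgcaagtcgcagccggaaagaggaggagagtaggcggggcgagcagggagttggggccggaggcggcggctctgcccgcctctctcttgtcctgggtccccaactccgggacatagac
S1pr1: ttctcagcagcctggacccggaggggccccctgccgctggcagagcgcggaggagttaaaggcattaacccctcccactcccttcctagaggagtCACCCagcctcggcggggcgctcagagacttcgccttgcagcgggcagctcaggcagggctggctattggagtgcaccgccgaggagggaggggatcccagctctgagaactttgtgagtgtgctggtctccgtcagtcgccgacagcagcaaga
The core occurs 1 time upstream of S1pr1 and has no match upstream of S1pr2. It was found in 6 of the 8 promoters available for the 9 genes and in 49.2% of 33469 rat promoters of the same length. The kappaB consensus, to which NF-kappa-B binds, had no match in the 8 promoters, against 3.54% of all. These matches are letters in a window of this length and say nothing on binding.

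S1pr3, whose receptor couples to several G protein classes and is known from vascular smooth muscle and endothelium, was lowest in the SEW arrays. It had 11.2, 11.1 and 11.21 in BD/SEW, 11.1, 11.55 and 11.45 in BD, 10.94, 10.79 and 10.96 in SEW, and 11.27, 11.63 and 11.21 in sham arrays. The SEW arrays lay below all others, and the other 3 groups overlapped. The log2 fold change was -0.47 ± 0.13 in SEW against sham and did not pass (adjusted p = 0.0617), and it was 0.27 ± 0.13 in BD/SEW against SEW (adjusted p = 0.249). Of all genes, 10.6% were lower without overlap in SEW against sham and 13.2% higher without overlap in BD/SEW against SEW. S1pr3 passed in SEW against sham without BD replicate 1 (adjusted p = 0.0479), which changes the estimate of the spread alone. Smooth muscle and pericyte markers (9 genes) were at 9.37 to 9.4 in BD/SEW, 9.54 to 9.62 in BD, 8.98 to 9.65 in SEW and 9.42 to 9.52 in sham arrays, and their part in the S1pr3 values was not tested. Over the 12 arrays S1pr3 correlated at r = -0.79 with the endothelial mean and at r = 0.63 with the smooth muscle mean, in arrays that share their groups. With the endothelial mean as a covariate the S1pr3 difference in SEW against sham was -0.02 ± 0.22 (adjusted p = 0.988), and with the cardiac mean it was -0.27 ± 0.17 (adjusted p = 0.555).

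S1pr5, a receptor gene known from natural killer cells, lay near the lower quartile of the genes. Its values were 6.53, 6.56 and 6.84 in BD/SEW, 6.59, 6.59 and 6.79 in BD, 6.65, 7.02 and 6.31 in SEW, and 6.01, 6.45 and 6.15 in sham arrays. The BD/SEW and BD arrays lay above the sham arrays, and the SEW arrays overlapped both sides. Such a separation upward was found for 7.95% of all genes in BD against sham and for 13.7% in BD/SEW against sham. S1pr5 differed by 0.45 ± 0.18 in BD against sham (adjusted p = 0.351), by 0.46 ± 0.18 in SEW against sham (adjusted p = 0.134) and by 0.44 ± 0.18 in BD/SEW against sham (adjusted p = 0.215). None passed, and the 3 comparisons share the sham arrays. The SEW difference was 0.28 without SEW replicate 2 (adjusted p = 0.343) and 0.63 without SEW replicate 3 (adjusted p = 0.0594). The mean of 9 NK and cytotoxic lymphocyte markers overlapped between all 4 groups, at 7.73 to 8.25 in BD/SEW, 7.59 to 8.02 in BD, 6.94 to 8.08 in SEW and 7.14 to 7.91 in sham arrays.

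**Figure D2:**
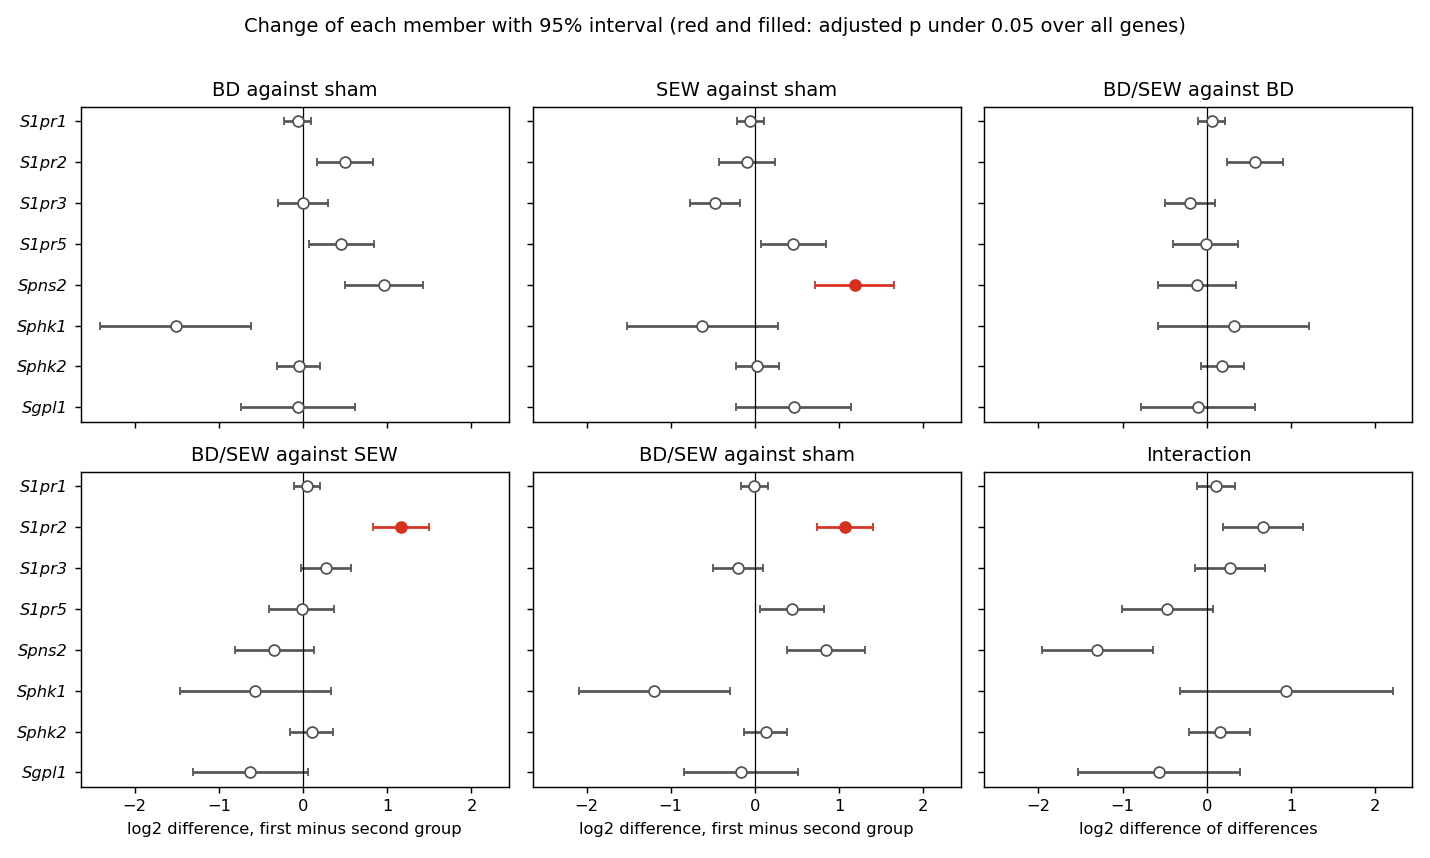
Log2 difference of each gene with its 95% interval in the 5 comparisons, and the difference of differences for the interaction, with genes down the page. Filled red points passed at an adjusted p under 0.05, which are S1pr2 in BD/SEW against SEW and against sham and Spns2 in SEW against sham, and the S1pr1 intervals are the narrowest in each panel.

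Spns2, the exporter through which endothelial cells release S1P, had its lowest arrays in sham and rose in SEW. Its values were 9.65, 9.85 and 9.9 in BD/SEW, 10.4, 9.59 and 9.76 in BD, 10.14, 10.48 and 9.8 in SEW, and 9.07, 8.76 and 9.04 in sham arrays. The sham arrays lay below the 9 others, and the other 3 groups overlapped each other. Spns2 averaged 10.14 ± 0.34 in SEW and 8.96 ± 0.17 in sham (SD, n = 3 each), a rise of 1.18 ± 0.21 on the log2 scale (SE; 2.27-fold, 95% interval 1.64 to 3.14; adjusted p = 0.0136). It was called in 12 of 12 fits with 1 array left out (1.01 to 1.35). Without sham replicate 3 and SEW replicate 2 together it was 1.055 ± 0.24 (adjusted p = 0.0527), and with BD replicate 2 left out as well it passed again (adjusted p = 0.0268).

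The other differences of Spns2 from sham did not pass over all 12 arrays. Spns2 differed by 0.96 ± 0.21 in BD against sham (adjusted p = 0.078) and by 0.84 ± 0.21 in BD/SEW against sham (adjusted p = 0.06). Both passed without BD replicate 2, with 1.12 (adjusted p = 0.0324) in BD against sham and 0.84 (adjusted p = 0.0423) in BD/SEW against sham. BD replicate 2 was the BD array with a cardiac mean of 11.73, against 6.52 and 7.57 in the others. Without it the cardiac means of BD and sham arrays (9.85 to 10.79 in sham) do not overlap. Their part and that of brain death cannot be told apart in that fit of BD against sham. In BD/SEW against sham the cardiac means do not overlap with all arrays kept (6.35 to 8.48 in BD/SEW). Their part there cannot be told apart from that of brain death with the agonist. With the cardiac mean as a covariate over all arrays the BD difference from sham was 0.79 ± 0.21 (adjusted p = 0.231). With the endothelial mean it was 0.66 ± 0.26 (adjusted p = 0.596). The BD/SEW difference from sham also passed without BD replicate 1 (adjusted p = 0.0314) or SEW replicate 2 (adjusted p = 0.0396). These arrays and BD replicate 2 are not in that comparison, so leaving them out changes the estimate of the spread alone. With a compared array left out it was called in 0 of 6 fits (adjusted p up to 0.203). It was 0.53 ± 0.25 with the cardiac covariate (adjusted p = 0.646) and 0.60 ± 0.24 with the endothelial covariate (adjusted p = 0.341). In BD/SEW against BD the difference was -0.12 ± 0.21 (95% interval -0.58 to 0.35), and in BD/SEW against SEW it was -0.34 ± 0.21 (-0.81 to 0.13). The brain-death difference was thus -0.34 with the agonist and 0.96 without it. The interaction of -1.3 ± 0.30 did not pass over all arrays (adjusted p = 0.0778) and passed without BD replicate 2 (-1.46, adjusted p = 0.0451). That fit has the same limit from the cardiac means. The interaction was called in 1 of 12 fits with 1 array left out (adjusted p up to 0.209). It was -1.10 ± 0.29 with the cardiac covariate (adjusted p = 0.165) and -0.65 ± 0.45 with the endothelial covariate (adjusted p = 0.921). Of all genes, 16.4% were higher without overlap in SEW against sham, 7.95% in BD against sham and 13.7% in BD/SEW against sham.

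The second Spns2 probe set gave the same order of groups. It had 8.54, 8.71 and 8.58 in BD/SEW, 9.07, 8.75 and 8.62 in BD, 9.11, 9.48 and 8.54 in SEW, and 8.07, 7.74 and 7.12 in sham arrays. Again the sham arrays were lowest without overlap. Tested over all 31042 probe sets by limma, it rose by 1.4 ± 0.26 in SEW against sham (adjusted p = 0.021), beside 1.18 ± 0.22 for the brighter probe set (adjusted p = 0.0197). Its differences of 1.17 ± 0.26 in BD against sham (adjusted p = 0.0937) and 0.97 ± 0.26 in BD/SEW against sham (adjusted p = 0.0943) did not pass.

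The endothelial markers moved with Spns2 in SEW against sham. Their means did not overlap (11.59 to 11.66 in SEW and 11.12 to 11.38 in sham arrays), and 4 of the 12 rose. With the endothelial mean as a covariate the Spns2 difference was 0.59 ± 0.38 (adjusted p = 0.735), and with the cardiac mean it was 0.84 ± 0.26 (adjusted p = 0.27). Neither mean overlaps between SEW and sham arrays, so their part and that of the agonist cannot be told apart in this comparison.

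**Figure D3:**
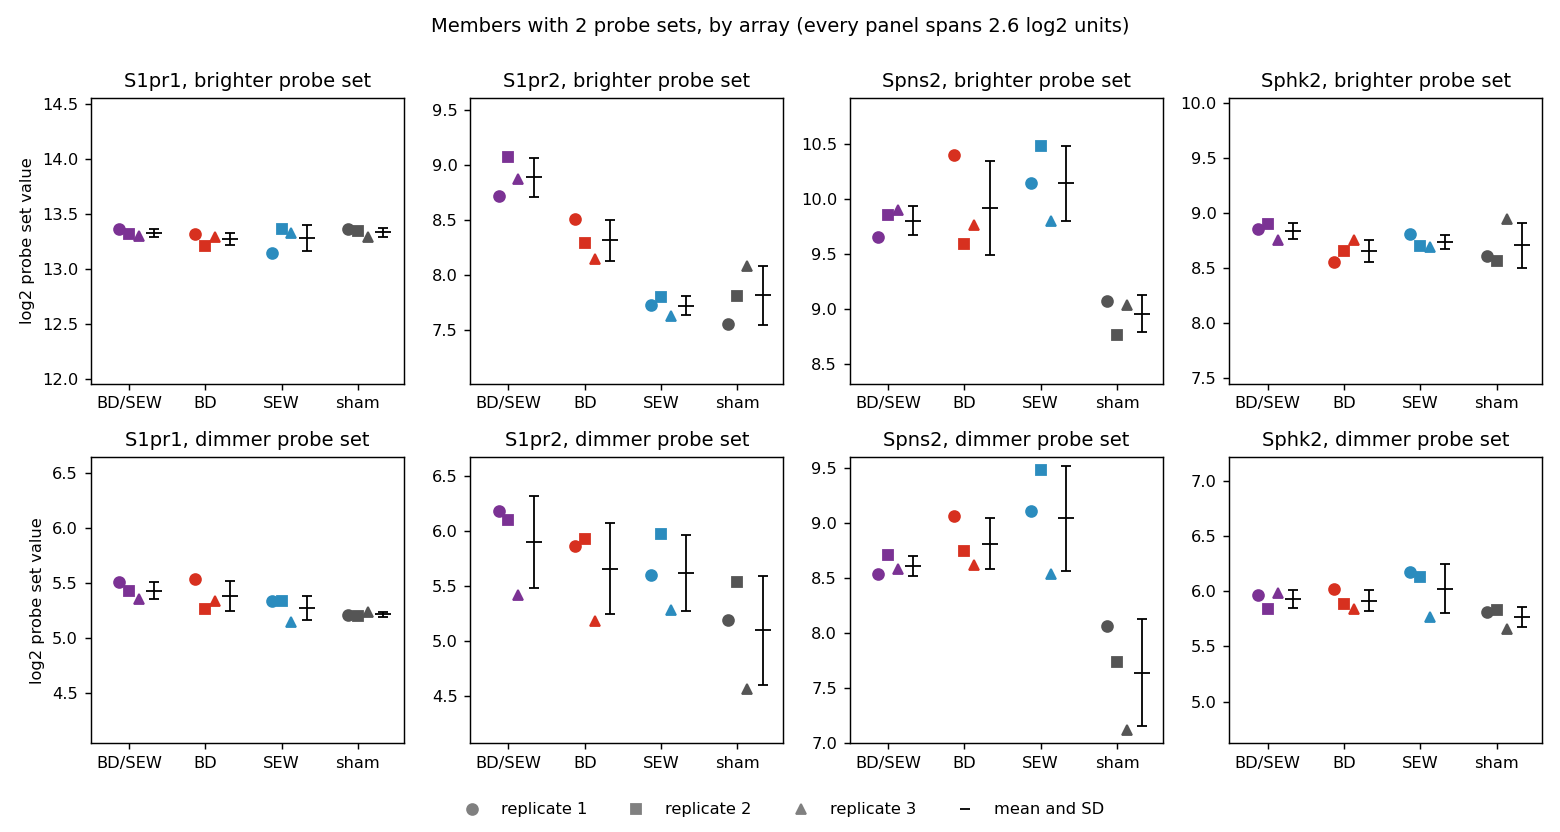
Log2 values of the 4 genes with 2 probe sets, with the brighter probe set in the upper row and the dimmer in the lower row, by group and replicate with mean and SD. The 2 Spns2 probe sets both have their 3 lowest values in the sham arrays, while the dimmer S1pr2 probe set, at 4.56 to 6.18, has overlapping groups.

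Of the kinases, Sphk1, the inducible cytosolic enzyme, had the widest spread. Its values were 8.32, 8.15 and 8.42 in BD/SEW, 7.46, 8.27 and 8.2 in BD, 9.9, 7.8 and 8.9 in SEW, and 9.33, 9.37 and 9.77 in sham arrays. All BD/SEW and BD arrays lay below the sham arrays, and the SEW arrays overlapped all 3 other groups. The log2 difference was -1.51 ± 0.41 in BD against sham (adjusted p = 0.144) and -1.19 ± 0.41 in BD/SEW against sham (adjusted p = 0.15), and neither passed over all 12 arrays. Of all genes, 7.74% were lower without overlap in BD against sham and 12.2% in BD/SEW against sham.

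The SEW arrays bear on these calls through the shared estimate of the spread. SEW replicate 2, the array with high heat shock transcripts, had the Sphk1 value of 7.8, and the SD of the SEW group was 1.05, against 0.14 in BD/SEW, 0.45 in BD and 0.24 in sham. Without it Sphk1 fell by 1.51 in BD against sham (adjusted p = 0.0304) and fell by 1.19 in BD/SEW against sham (adjusted p = 0.0367). Without SEW replicate 1 the adjusted p was 0.0554 in BD against sham and 0.0529 in BD/SEW against sham. With SEW replicate 2 and sham replicate 3 both left out it was 0.067 and 0.0782, and with the compared arrays only 0.0875 and 0.00835. With the cardiac mean as a covariate over all arrays it was 0.345 and 0.693, and with the endothelial mean 0.583 and 0.416. In BD/SEW against SEW the Sphk1 difference was -0.57 ± 0.41 (adjusted p = 0.454), and without SEW replicate 2 it was -1.1 ± 0.30 (adjusted p = 0.0499), while without SEW replicate 1 it was -0.05 (adjusted p = 0.947). In SEW against sham it was -0.62 ± 0.41 (adjusted p = 0.368), without SEW replicate 1 it was -1.14 (adjusted p = 0.0731), and without SEW replicate 2 it was -0.09 (adjusted p = 0.894). The part of heat shock in the Sphk1 value of this array was not tested.

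Sphk2, the kinase found mainly in the nucleus and other organelles, varied little. Its values were 8.85, 8.9 and 8.75 in BD/SEW, 8.55, 8.65 and 8.75 in BD, 8.81, 8.7 and 8.69 in SEW, and 8.61, 8.56 and 8.94 in sham arrays, and all groups overlapped their neighbours. The log2 difference was -0.05 (95% interval -0.31 to 0.20) in BD against sham, 0.03 (-0.23 to 0.29) in SEW against sham and 0.18 (-0.07 to 0.44) in BD/SEW against BD. A dimmer Sphk2 probe set at 5.66 to 6.18 passed in no comparison.

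Sgpl1, the lyase that ends S1P signalling by cleaving the lipid, was highest on average in SEW. It had 7.39, 7.31 and 6.65 in BD/SEW, 7.32, 7.33 and 7.02 in BD, 7.56, 7.89 and 7.78 in SEW, and 7.67, 7.75 and 6.43 in sham arrays. The SEW arrays lay above the BD/SEW and BD arrays and overlapped the sham arrays, of which replicate 3 was the lowest array of all. Replicate 3 was lowest in 3 of the 4 groups. The Sgpl1 difference of -0.63 ± 0.31 in BD/SEW against SEW did not pass (adjusted p = 0.252; 18.6% of all genes were lower without overlap there), nor did that of 0.46 ± 0.31 in SEW against sham (adjusted p = 0.382). In SEW against sham it was 0.03 without sham replicate 3, and -0.04 without that array and SEW replicate 2.

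Other genes of the pathway were read from 4 lists with 53 measured genes of 66. For BD against sham and BD/SEW against BD 0 of the 53 passed by limma. For SEW against sham 2 rose and 2 fell, where 5.84% of all genes were called (2.43% fell). For BD/SEW against SEW 5 rose and 3 fell, where 9.79% were called (5.04% fell). For BD/SEW against sham 3 rose and 1 fell, where 2.87% were called (1.17% fell). In the interaction 1 fell (0.0985% of all genes). None of the 9 measured genes of other S1P transport, carriers and phosphatases, such as Apom, which carries S1P in plasma, and Plpp3, which dephosphorylates it outside cells, passed in any comparison.

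Of 22 ceramide and sphingosine genes, 1 fell in SEW against sham, 2 rose and 2 fell in BD/SEW against SEW, and 1 rose and 1 fell in BD/SEW against sham. Ugcg, which makes glucosylceramide from ceramide, had 8.77, 8.99 and 9.08 in BD/SEW, 9.05, 8.79 and 8.87 in BD, 7.65, 8.39 and 7.46 in SEW, and 8.82, 9.08 and 9.06 in sham arrays. The SEW arrays were lowest without overlap. Ugcg fell by 1.15 ± 0.20 in SEW against sham (adjusted p = 0.0127; adjusted p = 0.143 with the cardiac covariate) and rose by 1.11 ± 0.20 in BD/SEW against SEW (adjusted p = 0.00542). Acer2, a ceramidase of the Golgi that releases sphingosine, had 12.29, 12.26 and 12.66 in BD/SEW, 12.7, 12.53 and 12.91 in BD, 13.42, 13.35 and 13.46 in SEW, and 13.26, 13.24 and 12.78 in sham arrays. It fell by 1.01 ± 0.15 in BD/SEW against SEW (adjusted p = 0.00164) and was called there in 6 of 6 fits with a compared array left out. Its fall of 0.69 ± 0.15 in BD/SEW against sham (adjusted p = 0.0337) was called in 2 of 6, not without sham replicate 1 or 2 or BD/SEW replicate 1 or 2 (adjusted p up to 0.152). Cerk, the ceramide kinase, fell by 0.76 ± 0.19 in BD/SEW against SEW (adjusted p = 0.0243). Degs2, a dihydroceramide desaturase, rose there by 0.73 ± 0.20 (adjusted p = 0.0384) and in BD/SEW against sham by 0.83 ± 0.20 (adjusted p = 0.0471). Cerk was called in 2 of 6 such fits, not without SEW replicate 2 or any of the 3 BD/SEW arrays (adjusted p up to 0.0864). Degs2 was called in 1 of 6 in BD/SEW against SEW, where SEW replicate 1 was left out (otherwise up to 0.136), and in 0 of 6 in BD/SEW against sham (up to 0.191).

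Of 16 G protein genes and regulators of S1P receptors, 2 rose and 1 fell in SEW against sham, 1 rose and 1 fell in BD/SEW against SEW, and 1 rose in BD/SEW against sham. Klf2, a transcription factor known to induce S1pr1 in T cells, had 10.59, 10.6 and 10.95 in BD/SEW, 10.76, 10.7 and 11.08 in BD, 12.17, 12.64 and 12.58 in SEW, and 10.58, 11.08 and 11.29 in sham arrays. The SEW arrays were highest without overlap. S1pr1 had 13.15 to 13.37 there, at percentile 99.4 to 99.6, where its response to a rise was not tested. Values of whole lung do not single out T cells, and a link between Klf2 and S1pr1 was not tested. Klf2 rose by 1.48 ± 0.19 in SEW against sham (adjusted p = 0.00349). It fell by 1.75 ± 0.19 in BD/SEW against SEW (adjusted p = 0.000334), and its interaction was -1.61 ± 0.27 (adjusted p = 0.0206). The interaction did not pass without BD replicate 1, SEW replicate 3 or BD/SEW replicate 1 or 2 (adjusted p up to 0.0757). Cd69, whose protein binds S1P1 and takes it off the lymphocyte surface, had 9.56, 10.07 and 10.08 in BD/SEW, 9.04, 9.75 and 9.99 in BD, 8.47, 8.7 and 8.23 in SEW, and 9.31, 9.53 and 10 in sham arrays. Cd69 rose by 1.44 ± 0.26 in BD/SEW against SEW (adjusted p = 0.0045) and was called in 6 of 6 fits with a compared array left out. It fell by 1.15 ± 0.26 in SEW against sham (adjusted p = 0.0287), called in 2 of 6 and not without sham replicate 2 or 3 or SEW replicate 1 or 3 (adjusted p up to 0.0881). Arrb1, a beta-arrestin, rose by 0.5 ± 0.12 in BD/SEW against sham (adjusted p = 0.0443), called in 0 of 6 (up to 0.159).

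Of 6 genes for the receptors and synthesis of lysophosphatidic acid, a related lipid that also acts through G protein-coupled receptors, 2 rose in BD/SEW against SEW. The receptor gene Lpar6 had 9.16, 9.19 and 9.17 in BD/SEW, 9.08, 9.12 and 9.13 in BD, 8.27, 8.78 and 8.48 in SEW, and 8.63, 8.83 and 8.66 in sham arrays. The BD/SEW arrays lay above all others, but the lowest of them, at 9.16, was close to the highest BD array, at 9.13. Lpar6 did not pass in BD/SEW against BD, where 7.9% of all genes were higher without overlap. In BD/SEW against SEW Lpar6 rose by 0.66 ± 0.12 (adjusted p = 0.00586). Lpar3, another receptor gene, rose by 0.35 ± 0.10 in BD/SEW against SEW (adjusted p = 0.0431) and by 0.54 ± 0.10 against sham (adjusted p = 0.0147), at values of 4.88 to 5.67 that reach little above the lower quartile of the arrays. With a compared array left out the first was called in 2 of 6 fits, not without SEW replicate 1 or 2 or BD/SEW replicate 1 or 2 (adjusted p up to 0.159). The second was called in 3 of 6, not without sham replicate 1 or BD/SEW replicate 1 or 2 (up to 0.0842).

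Endothelial and cardiac markers also differed between SEW and sham arrays, as given above for Spns2. With the cardiac mean as a covariate the 4 calls in SEW against sham had adjusted p-values of 0.0838 (Klf2) or more, and with the endothelial mean 0.435 (Klf2) to 0.828 (Cd69). In BD/SEW against SEW all 8 calls passed with the cardiac mean, and with the endothelial mean Klf2 passed (adjusted p = 0.00738), while the other 7 did not (0.0539 for Acer2 to 0.309 for Lpar3). The 4 calls in BD/SEW against sham passed with neither. The Klf2 interaction did not pass with the endothelial mean (adjusted p = 0.416) and stood at the threshold with the cardiac mean (adjusted p = 0.05).

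**Figure D4:**
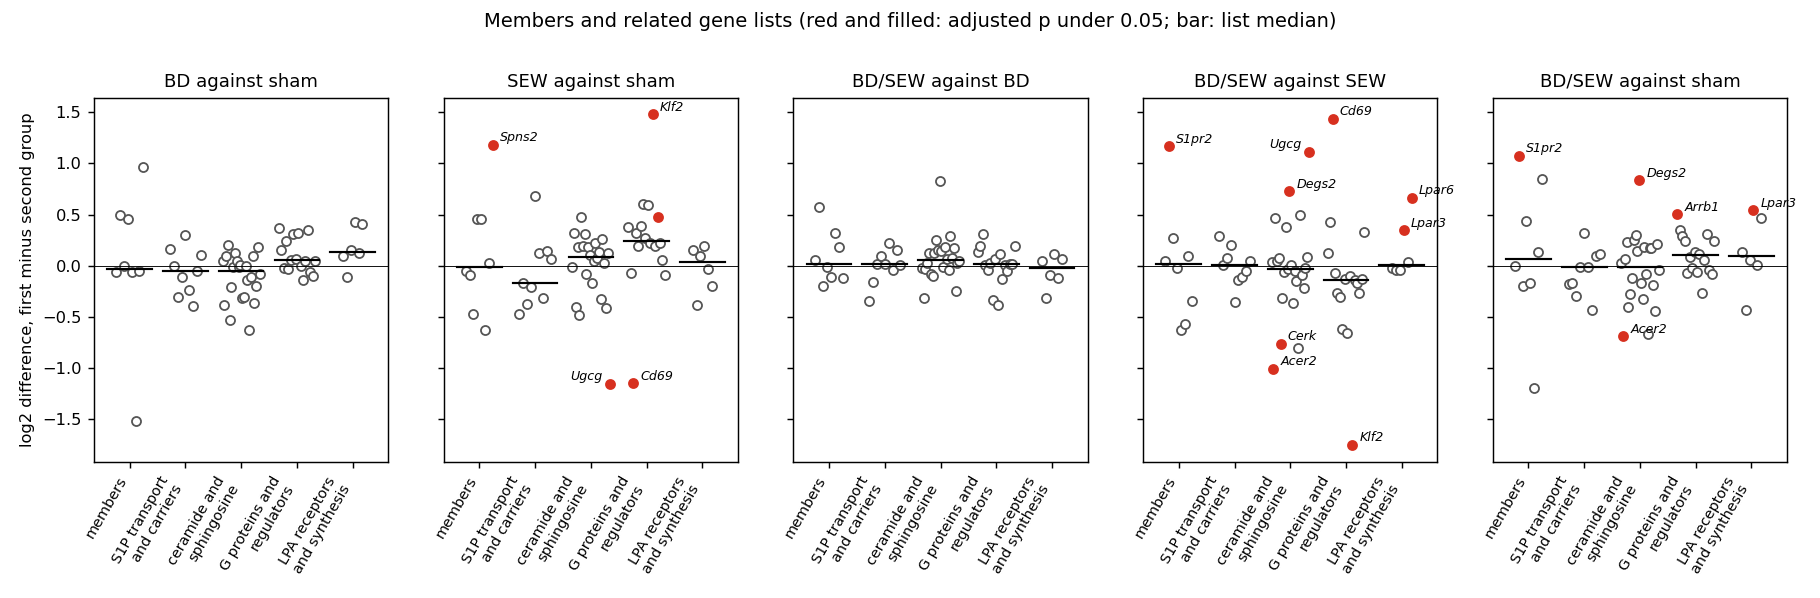
Log2 differences of the 8 genes and of the 4 related lists in 5 comparisons, each point a gene, with filled red points at an adjusted p under 0.05 and bars at list medians. BD against sham and BD/SEW against BD hold no filled point, and Klf2 reaches 1.48 in SEW against sham and -1.75 in BD/SEW against SEW.

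The genes whose log2 values over the 12 arrays were most like those of a called gene were taken by Pearson correlation, as a description of arrays that share their groups. For Spns2 they were Shd (r = 0.93), Plxna1 (r = 0.91) and Sox18 (r = 0.90), the last a transcription factor of endothelium. Sox18 is itself on the endothelial marker list, so its likeness to Spns2 is not separate from the endothelial mean given above. Plxna1 averaged 9.16 in BD/SEW, 9.22 in BD, 9.17 in SEW and 8.77 in sham, and Sox18 averaged 9.14, 9.22, 9.85 and 8.23 in the same groups. For S1pr2 they were Micall2 (r = 0.94), Neurl3 (r = 0.94) and Lpcat1 (r = 0.93). Micall2 averaged 7.65 in BD/SEW, 7.13 in BD, 6.26 in SEW and 6.44 in sham, an order of groups like that of S1pr2.

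**Figure D5:**
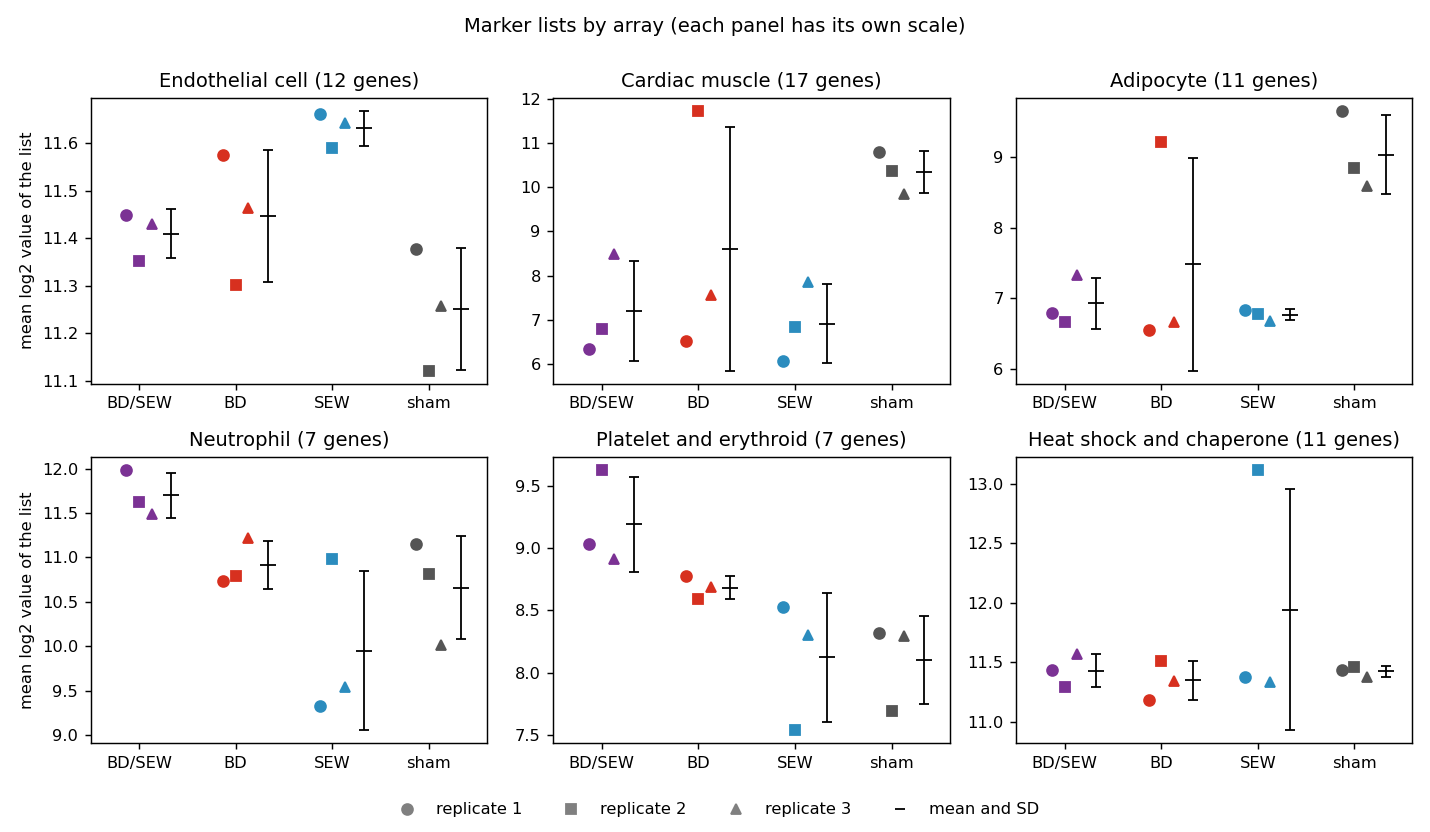
Mean log2 value of 6 marker lists in each array, by group and replicate with mean and SD, each panel on its own scale. Cardiac and adipocyte means are high in sham and BD replicate 2, neutrophil means are highest in BD/SEW, and SEW replicate 2 stands apart at 13.12 for heat shock genes.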

How the data were processed

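The authors deposited log2 probe set values with 2 decimals for 12 arrays. The submitters' processing notes list MAS5, RMA and affy but give no version or role. Biotin-labelled cRNA was made from 6 ug of total RNA per array, per the labels. Raw array files were not used here. Gene symbols came from the array's annotation table, in which 20826 probe sets have 1 symbol, 436 have several and 9780 have none. The brightest probe set by mean was used for each of 14217 genes, of which 4525 had several. limma 3.58.1 in R 4.3.3 fitted 1 mean per group over all 12 arrays, with variances moderated along a mean trend, two-sided tests and Benjamini-Hochberg adjustment over all genes. The code was tested on simulated data. GRCr8 tables of RefSeq gave the promoters.

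Named are all 9 genes of the S1P system. From the pathway lists, up to 5 called genes with the largest change per comparison are named, and 3 genes most like each called gene. In SEW against sham 1 called list gene is counted but not reported here by name. Apom and Plpp3, and in BD/SEW against SEW also Degs2, Lpar3 and Lpar6, fall outside this rule and were chosen once their values had been seen. The genes and lists were chosen with earlier results of these data known, and the heat shock list and 1 alternative (2 arrays left out together) after seeing the data. Alternatives changed the arrays, block, moderation, weights, probe sets, filter, scaling, threshold and covariates.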

Additional observations from a re-analysis of the deposited data

How the results depend on the processing

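No direction was turned in a called result. Of 1378 values of single genes under the alternatives, 1344 stayed on their side of the threshold in the same direction or uncalled, 29 newly passed and 5 no longer passed. Most of these values belong to differences not called with all arrays, so the share that stayed does not measure how firm the called ones are. Of the 5 that no longer passed, 4 were of Spns2 and 1 of S1pr2. The number of the 8 genes called was 0 in BD/SEW against BD under all alternatives run. With each array left out in turn, it ran from 0 to 1 for BD against sham (0 with all arrays), from 1 to 2 for SEW against sham (1 with all arrays) and from 0 to 0 for BD/SEW against BD. It ran from 1 to 2 for BD/SEW against SEW (1 with all arrays), from 1 to 3 for BD/SEW against sham (1 with all arrays) and from 0 to 1 for the interaction (0 with all arrays). With array weights it was 3 for BD against sham, 2 for SEW against sham, 4 for BD/SEW against sham and 1 for the interaction. With the compared arrays only it was 3 for BD/SEW against sham, and after a further quantile normalization it was 2 for SEW against sham. At an adjusted p under 0.01 it was 0 for SEW against sham, and at one under 0.1 it was 1 for BD against sham, 2 for SEW against sham, 2 for BD/SEW against sham and 1 for the interaction. Without sham replicate 3, SEW replicate 2 and BD replicate 2 together it was 2 for BD against sham, 2 for BD/SEW against SEW and 2 for BD/SEW against sham. Without the first 2 of these, an alternative chosen after seeing the data, it was 0 for SEW against sham and 2 for BD/SEW against SEW. With the cardiac covariate it was 0 for SEW against sham and 0 for BD/SEW against sham, and with the endothelial covariate 0 for SEW against sham. The cause of these shifts was not tested, apart from the fewer arrays and the threshold itself.

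Same-numbered arrays correlated at -0.19 to 0.38 in their deviations from the group means (18 pairs), and arrays with other numbers at -0.43 to 0.29 (36 pairs). These ranges overlap and cannot decide whether the replicate numbers of the labels pair the arrays. With the replicate number as a block, Spns2 for SEW against sham was 1.18 (adjusted p = 0.0174), S1pr2 for BD/SEW against SEW was 1.17 (adjusted p = 0.00194) and the block changed no call of the 8 genes. In the pathway lists it ended the calls of Lpar3 for BD/SEW against SEW (adjusted p = 0.0594) and of Degs2 (0.0575) and Arrb1 (0.0516) for BD/SEW against sham. Of the 12 arrays 3 correlated best with their own number in every other group. The filter on dim genes leaves out S1pr5. No fit with the compared arrays only exists for the interaction. Signal over background was not measured, which limits S1pr5, Lpar3 and the dimmer probe sets of S1pr1, S1pr2 and Sphk2.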

Other observations

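S1P1 agonists are known for keeping lymphocytes in lymphoid organs, so lymphocyte markers were read as well. The mean of 10 T lymphocyte markers was 7.04 to 7.31 in BD/SEW, 7.09 to 7.39 in BD, 6.96 to 7.2 in SEW and 7.19 to 7.38 in sham arrays. The mean of 5 B lymphocyte markers was 7.63 to 7.88 in BD/SEW, 7.58 to 7.84 in BD, 6.83 to 8.22 in SEW and 7.41 to 8.03 in sham arrays. In SEW against sham 0 of the 10 T and 0 of the 5 B lymphocyte markers passed by limma, with median log2 fold changes of -0.17 and -0.25, beside 0.02 over all genes. In BD/SEW against BD 0 of each passed, with medians of -0.04 and 0.09. In BD/SEW against sham 1 of the 10 T lymphocyte markers fell and 0 of the 5 B lymphocyte markers passed, with medians of -0.06 and 0.02. In BD against sham and BD/SEW against SEW 0 of each passed.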
